A study of Mus musculus with 2 samples.

Results

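MicroRNA genes known from white blood cells and microglia, namely Mir142, Mir223, Mir155, Mir146 and Mir150, were followed in the midbrain of mouse embryos. They are 5 of the 1973 microRNA genes in the count tables. Mir223, Mir155, Mir146 and Mir150 were found by gene symbol and read on their own strand. Mir142 has no row of its own and was read through Mir142b, an annotated gene on the opposite strand of the same place. The tissue was healthy midbrain at embryonic day 12.5 from strain B6NCrl, both sexes mixed, with no treatment. Replicate 2 pooled 88 embryos and replicate 1 pooled 120, so each library is an average over many animals and the spread between single embryos was not measured. RNA below 30 nucleotides was sequenced. All 5 genes had reads in both libraries, and all 5 had at least 10 reads in each.

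MicroRNAs are short RNAs cut from a hairpin, and they lower the output of messenger RNAs that match their seed, bases 2 to 8 of the mature strand. Mir142 is a general microRNA of blood cells, and Mir223 belongs to the myeloid branch, above all neutrophils and monocytes. Mir155 is processed from the Mir155hg transcript, rises when immune cells are activated and targets the inositol phosphatase Ship1. Mir146, the mouse gene for miR-146a, is induced by NF-kappaB and damps the same pathway through Traf6 and Irak1. Mir150 is a microRNA of mature lymphocytes that targets the transcription factor Myb. At midgestation the brain is being settled by microglia, macrophages of yolk sac origin, and its vessels carry blood. None of the 5 microRNAs is restricted to one of these cell types.

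The mature sequences are shown because the seed sets which messenger RNAs a microRNA matches, with the seed in capitals (RefSeq, GRCm38.p6). Mir150 is shown by its 3p arm alone, and its other arm, miR-150-5p, is named only. The tables count reads per hairpin, so the arms of one hairpin are not separated in any value given here.
miR-142a-5p: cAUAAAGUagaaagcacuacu
miR-142a-3p: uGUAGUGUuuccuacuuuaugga
miR-142b: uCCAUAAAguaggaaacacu
miR-223-5p: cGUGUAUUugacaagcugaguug
miR-223-3p: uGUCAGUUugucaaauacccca
miR-155-5p: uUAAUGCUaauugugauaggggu
miR-155-3p: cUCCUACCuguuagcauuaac
miR-146a-5p: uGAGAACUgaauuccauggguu
miR-146a-3p: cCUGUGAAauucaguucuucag
miR-146b-5p: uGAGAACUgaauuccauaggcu
miR-150-3p: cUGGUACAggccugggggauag

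Of the 9 sequences above that come from the 5 genes (miR-142b and miR-146b-5p left out), 8 had a seed found in no other of the 1738 mature mouse sequences of the RefSeq table. The exception was miR-146a-5p, whose seed is also that of miR-146b-5p. Those sequences share their first 17 bases and differ by G18A and U21C, counted from base 1 at the 5′ end, with the base of miR-146a-5p first. A read that ends before base 18 matches both. The Mir146 hairpin was also the only one of the 4 hairpins examined (Mir142, Mir223, Mir155 and Mir146) that shared 20 consecutive bases with a hairpin elsewhere, that of Mir146b. Reads that aligned to several places were assigned to no gene, so Mir146 could be undercounted.

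The Mir142 place shows why a strand had to be chosen. The hairpins of both genes at this place follow, each 5′ to 3′ on its own strand with mature sequence in capitals. Mir142 lies on the plus strand (chr11:87756864-87756927) and Mir142b (ENSMUSG00000065420.2) on the minus strand (chr11:87756841-87756955).
Mir142: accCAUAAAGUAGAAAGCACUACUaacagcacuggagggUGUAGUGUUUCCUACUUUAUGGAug
Mir142b: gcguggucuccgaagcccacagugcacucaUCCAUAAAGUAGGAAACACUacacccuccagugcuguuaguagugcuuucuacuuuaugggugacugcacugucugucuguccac

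The whole Mir142 hairpin of 64 bases lies inside the Mir142b hairpin of 115 bases. All 20 bases of miR-142b are complementary to miR-142a-3p, from its base 4 to its base 23. The place is also close to a palindrome: miR-142a-5p and miR-142b share a run of 10 bases. Every read over this place lay on the strand of Mir142. The Mir142b row held 0 reads on its own strand in either library, and a count of 0 allows up to 1.07 CPM in replicate 2 and 0.648 CPM in replicate 1. CPM are counts per 1000000 reads assigned to a microRNA gene on its own strand. On the opposite strand the row held 1332 reads in replicate 2 and 1646 in replicate 1, which were taken as Mir142. They made up 1.88% of all opposite-strand gene reads in replicate 2 and 1.45% in replicate 1. The other 4 genes held 1 opposite-strand read in all, over Mir150 in replicate 2.

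In GENCODE M21 on GRCm38, the assembly of the deposited counts, the 5 genes lie apart on chromosomes 11, X, 16, 11 and 7. Mir142 is intronic to the long non-coding gene Mir142hg, which spans chr11:87755577-87757270. Mir223 (ENSMUSG00000076066.1, chrX:96242817-96242926, plus strand) overlaps an exon of the non-coding gene F630028O10Rik. Mir155 (ENSMUSG00000065397.1, chr16:84714140-84714204, plus strand) overlaps an exon of the non-coding gene Mir155hg. Mir146 (ENSMUSG00000065601.1, chr11:43374397-43374461, minus strand) and Mir150 (ENSMUSG00000065495.1, chr7:45121757-45121821, plus strand) overlap no other annotated gene. Each stands without a close neighbour among the counted genes, the nearest being Mir7054 at 109270 bases from Mir150. The hairpins of Mir223, Mir155 and Mir146 read as follows.
Mir223: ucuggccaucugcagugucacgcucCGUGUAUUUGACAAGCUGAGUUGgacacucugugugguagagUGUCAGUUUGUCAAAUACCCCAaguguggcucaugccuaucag
Mir155: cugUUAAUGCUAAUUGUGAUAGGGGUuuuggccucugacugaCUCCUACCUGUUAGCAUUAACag
Mir146: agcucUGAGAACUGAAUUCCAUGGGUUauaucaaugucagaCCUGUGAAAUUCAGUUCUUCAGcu

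These hairpins are shown because a table row counts reads anywhere along one of them. Capitals mark the mature arms. The annotated Mir155 and Mir146 hairpins hold 65 bases and the Mir223 hairpin holds 110.

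The libraries held 2805487 assigned own-strand reads in replicate 2 and 4629302 in replicate 1, so that 1 read stood for 0.356 CPM in replicate 2 and 0.216 CPM in replicate 1. Multimapping reads took 33.4% of all reads in each library. The tissue label was checked against 10 microRNA genes of neural tissue, of which 9 were found by symbol, all with reads in both libraries. They summed to 7507 CPM in replicate 2 and 8333 CPM in replicate 1, led by the neuronal microRNAs Mir137 (3564 CPM in replicate 2, 4225 CPM in replicate 1) and Mir153 (3286 CPM in replicate 2, 3512 CPM in replicate 1). Mir9 and Mir124, the best known neural microRNAs, have several gene copies, and reads that match several copies are missing from these values. Of these copies Mir9-3 was highest, at 246 CPM in replicate 2 and 316 CPM in replicate 1. Mir124a-2 had 14.3 CPM in replicate 2 and 14.9 CPM in replicate 1, and Mir124a-3, Mir9-2 and Mir124a-1 had less. Mir9-2 and Mir124a-1 had fewer than 10 reads in replicate 2.

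Mir142 was the most abundant of the 5 genes. It stood at 475 CPM in replicate 2 (95% Wilson interval 450.0 to 501.0) and 356 CPM in replicate 1 (339 to 373), a mean of 415 ± 84.3 CPM (SD, n = 2). Mir223 came next, with 1178 reads or 420 CPM in replicate 2 (397 to 445) and 1312 reads or 283 CPM in replicate 1 (268 to 299), a mean of 352 ± 96.5 CPM. For both genes the higher value was that of replicate 2, and the intervals of the libraries did not overlap. A read of a mature microRNA spans the whole molecule, so counts were not divided by length. Ligation and amplification favour some small RNA sequences over others, and their part in the order of genes was not tested.

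Mir155 stood below these, with 660 reads or 235 CPM in replicate 2 (218 to 254) and 1225 reads or 265 CPM in replicate 1 (250.2 to 280), a mean of 249.9 ± 20.8 CPM (SD, n = 2). It was the steadiest of the 5 genes, with an SD of 8.31% of the mean, and the only one with the higher value in replicate 1. Its intervals in the libraries overlapped.

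Mir146 and Mir150 were the low members. Mir146 had 232 reads or 82.7 CPM in replicate 2 (72.7 to 94.0) and 190 reads or 41.0 CPM in replicate 1 (35.6 to 47.3), a mean of 61.9 ± 29.5 CPM (SD, n = 2). Mir150 had 87 reads or 31.0 CPM in replicate 2 (25.1 to 38.2) and 85 reads or 18.4 CPM in replicate 1 (14.9 to 22.7). The mean of Mir150 was 24.7 ± 8.94 CPM. Both were higher in replicate 2 with intervals that did not overlap. Mir146 was the most variable of the 5, with an SD of 47.6% of its mean.

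**Figure D1:**
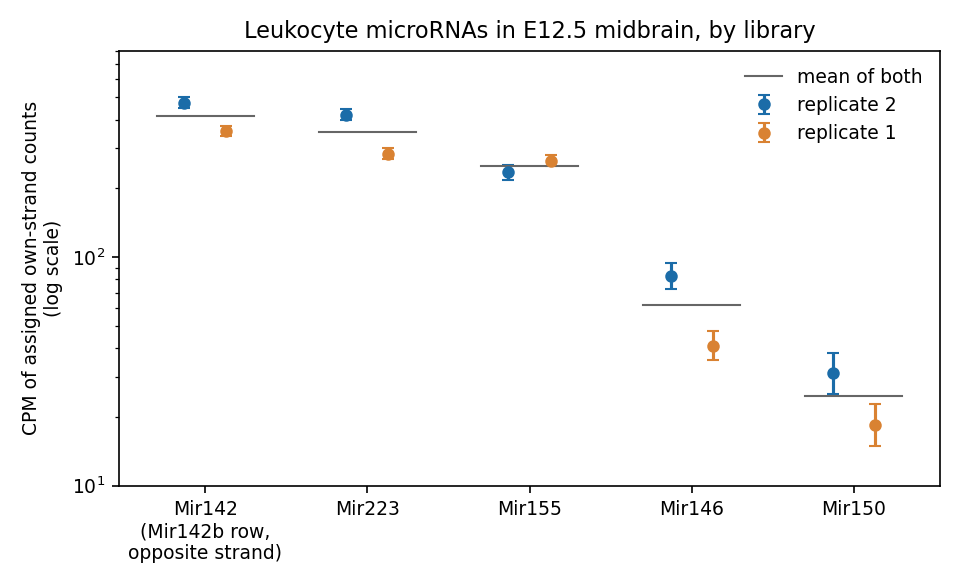
Level of each gene in CPM on a log axis, with replicate 2 left of replicate 1, 95% Wilson intervals as bars and a grey line at the mean. Mir142 and Mir223 lie highest and Mir150 lowest, and Mir155 is the only gene with the lower value in replicate 2 (235 against 265 CPM).

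The order Mir142, Mir223, Mir155, Mir146, Mir150 was the same in both libraries. Over the libraries, the range of Mir142 (356 to 475 CPM) overlapped that of Mir223 (283 to 420 CPM), while the other neighbours in the order had ranges that did not overlap. Within each library Mir142 still stood above Mir223, by 1.13 times in replicate 2 and 1.25 times in replicate 1, and their Wilson intervals did not overlap. In counts, Mir142 exceeded Mir150 by 15.3 times in replicate 2 and 19.4 times in replicate 1, and Mir223 exceeded Mir146 by 5.08 times in replicate 2 and 6.91 times in replicate 1. In bulk tissue a level reflects both how many cells carry a microRNA and how much each holds, and these cannot be told apart.

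Together the 5 genes summed to 1244 CPM in replicate 2 and 963 CPM in replicate 1, a mean of 1103 ± 198 CPM (SD, n = 2). Relative to the assigned own-strand reads that is 0.124% in replicate 2 and 0.0963% in replicate 1. Mir142 alone held 38.2% of the reads of the 5 genes in replicate 2 (36.6 to 39.8%, Wilson) and 36.9% in replicate 1 (35.5 to 38.3%). Mir223 held 33.8% in replicate 2 (32.2 to 35.3%) and 29.4% in replicate 1 (28.1 to 30.8%). Mir142 and Mir223 together made up 71.9% of these reads in replicate 2 and 66.4% in replicate 1. These are shares of reads and not of cell types. Mir155 held 18.9% in replicate 2 (17.7 to 20.2%) and 27.5% in replicate 1 (26.2 to 28.8%). In percentage points that was the largest shift among the 5, though the level of Mir155 was the steadiest. Shares are parts of 1 sum, so that of Mir155 also depends on the other 4 genes. Mir146 held 6.65% in replicate 2 and 4.26% in replicate 1, and Mir150 held 2.49% in replicate 2 and 1.91% in replicate 1.

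**Figure D2:**
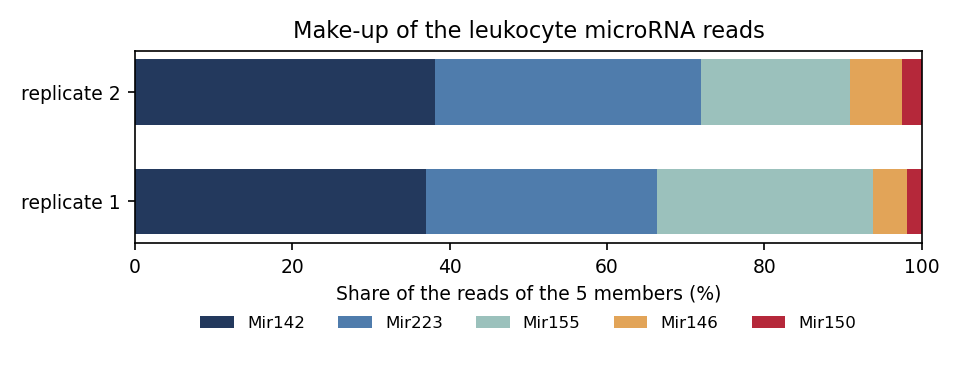
Share of the reads of the 5 genes that each gene holds, in percent, with replicate 2 above replicate 1. The segment of Mir155 is the one that differs most in percentage points, at 18.9% in replicate 2 and 27.5% in replicate 1.

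Among the 381 features with at least 10 reads in both libraries, the 5 genes held middle and low ranks by mean CPM. Mir142 ranked 145, Mir223 ranked 151 and Mir155 ranked 169, above the median feature at 148 CPM. Mir146 ranked 249 and Mir150 ranked 290, below it. Mir155 ranked 171 in each library taken alone, while Mir142 ranked 136 in replicate 2 and 153 in replicate 1, and Mir146 ranked 232 in replicate 2 and 262 in replicate 1. Ranks leave out reads that aligned to several places, so genes with several similar copies could rank too low.

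In level, Mir142 stood between Mir185 (403 CPM in replicate 2, 440.0 CPM in replicate 1) and Mirlet7f-2 (451 CPM in replicate 2, 375 CPM in replicate 1). Mir223 stood between Mir101a (389 CPM in replicate 2, 377 CPM in replicate 1) and Mir384 (356 CPM in replicate 2, 331 CPM in replicate 1). Around Mir155 were Mir148b (269 CPM in replicate 2, 283 CPM in replicate 1) and Mir135a-2 (236 CPM in replicate 2, 254 CPM in replicate 1). Of the 10 neighbours, 9 had a range over the libraries that overlapped that of the gene beside them, and Mir148b, whose lower value was just above the higher value of Mir155, did not. Mir190a and Mir3475 stood beside Mir146, at means of 64.7 ± 3.24 and 60.6 ± 11.5 CPM, and Mir208b and Mir3058 beside Mir150, at 25.5 ± 2.20 and 24.6 ± 5.10 CPM (SD, n = 2).

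**Figure D3:**
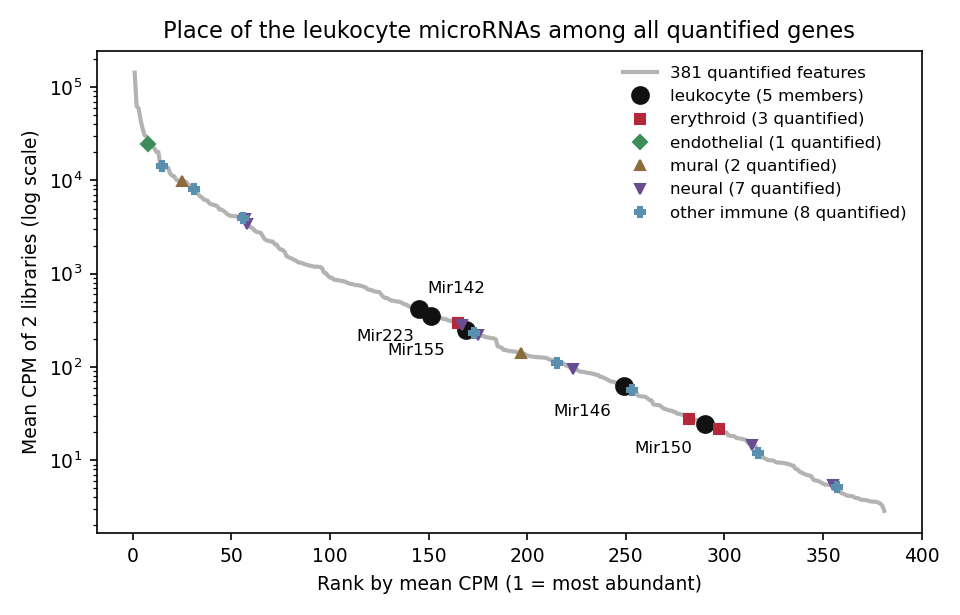
Mean CPM on a log axis against rank by mean CPM, with the 381 quantified features as a grey line, the 5 leukocyte genes as black dots and the genes of 5 comparison lists as coloured marks. The black dots run from rank 145 (Mir142) to rank 290 (Mir150), below endothelial Mir126a at rank 8. Mir142 and Mir223 rank above the erythroid marks at ranks 165 to 297, and Mir155, Mir146 and Mir150 lie among them.

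The libraries were then compared with each other, gene by gene, by a two-sided Fisher's exact test with Benjamini-Hochberg adjustment over all 381 features. This sets the difference between these pools of embryos against counting noise and compares no conditions. At an adjusted p under 0.05, 54.3% of all features were called, 27.3% higher in replicate 2 and 27.0% lower. All 5 leukocyte genes were called, 4 higher in replicate 2 and Mir155 lower. Their median log2 ratio, replicate 2 over replicate 1, was 0.57, beside 0.04 over all features.

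Mir146 differed most, with a log2 ratio of 1.01 ± 0.14 (counting SE), or 2.01 times the level in replicate 2, and an adjusted p of 3.15e-12 by Fisher's exact test. By size of log2 ratio in either direction it ranked 14 among the 381 features. Mir150 followed at 0.76 ± 0.22 (adjusted p = 0.00156, Fisher's exact test), an estimate that rests on under 100 reads in each library. Mir223 had a log2 ratio of 0.57 ± 0.06 (adjusted p = 1.11e-21) and Mir142 one of 0.42 ± 0.05 (adjusted p = 2.88e-14), both by the same exact test. Mir155 had -0.17 ± 0.07 (adjusted p = 0.0300, exact test), and this call ended with every gene that had a read in either library tested (adjusted p = 0.0560, with a range of 0.0045 to 1 over all 8 alternatives).

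A second test allowed for the spread between the libraries over all genes, which corresponded to a biological coefficient of variation of 20.4%. With that common dispersion the exact test of edgeR called 4 features, 1.05% of the 381, with 0.262% higher in replicate 2 and 0.787% lower, and none of the 5 leukocyte genes. Their adjusted p ran from 0.762 for Mir146 to 1, and at an unadjusted p under 0.05 only Mir146 passed (p = 0.0239, edgeR exact test). The differences of Mir142, Mir223, Mir146 and Mir150 thus exceeded counting noise, while for Mir155 this depended on which genes were tested. None of the 5 passed the test against the general spread between the pools.

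**Figure D4:**
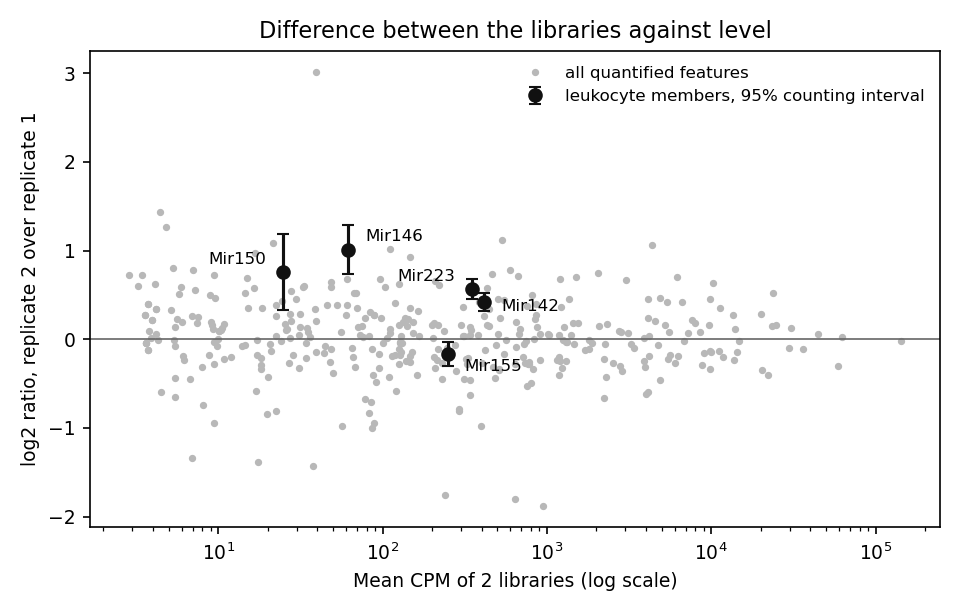
Log2 ratio of replicate 2 over replicate 1 against mean CPM on a log axis, with all quantified features in grey and the 5 leukocyte genes in black with 95% counting intervals. Mir146 lies at 1.01, Mir150, Mir223 and Mir142 lie between 0.42 and 0.76, and Mir155 lies at -0.17.

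Ratios between the 5 genes do not depend on the total used for scaling. Of the 10 pairs, 6 had a 95% counting interval for the change between the libraries that excluded no change. These intervals cover counting error only, and no pair was tested against the general spread between the pools. Pairs of other features were not counted, and 54.3% of all single features already differed beyond counting noise. The 6 pairs are thus no trait particular to these genes. The reads of Mir155 per read of Mir146 numbered 2.84 in replicate 2 and 6.45 in replicate 1, a log2 change of -1.18 (interval -1.49 to -0.87). Mir223 per read of Mir155 was 1.78 in replicate 2 and 1.07 in replicate 1 (log2 change 0.74, interval 0.56 to 0.91). Mir142 per read of Mir155 was 2.02 in replicate 2 and 1.34 in replicate 1 (log2 change 0.59, interval 0.42 to 0.76). All 4 pairs with Mir155 were among the 6 beyond counting error.

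Mir142 changed less against Mir223 than against Mir155. Mir142 per read of Mir223 was 1.13 in replicate 2 and 1.25 in replicate 1, a log2 change of -0.15 whose interval of -0.30 to 0.004 includes no change. Mir146 per read of Mir150 was 2.67 in replicate 2 and 2.24 in replicate 1 (log2 change 0.25, interval -0.26 to 0.77), and at this depth a change was not detectable.

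Genes with the most similar ratio between the libraries were sought among the 267 other features with at least 100 reads in both. With only 2 libraries the ratio is the whole pattern, so likeness means only a similar ratio. Closest to Mir142 were Mir148a (log2 ratio 0.42) and Mir125a (0.42), and closest to Mir223 were Mir199b (0.58) and Mir7j (0.59). Mir494 and Mir338 (both -0.17) were closest to Mir155. Mir10b (1.02) and Mir214 (1.07) were closest to Mir146, and Mirlet7d (0.75) and Mir429 (0.74) to Mir150. Because they were picked for a small difference, none of these 10 genes differed from its leukocyte gene by more than 0.06 on the log2 scale. That is below the counting SE of Mir146 (0.14) and Mir150 (0.22), so counting noise alone could change which genes are named for these.

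Other microRNAs used in immune cells formed a list of 9 genes. They reached 26415 CPM in replicate 2 and 26938 CPM in replicate 1, which was 21.2 times the sum of the 5 leukocyte genes in replicate 2 and 28.0 times in replicate 1. Mir342 (13607 CPM in replicate 2, 15080 CPM in replicate 1) and Mir21a (8510 CPM in replicate 2, 7495 CPM in replicate 1), both found in many cell types, held most of it. Mir181a-1, known from thymocytes and also from neurons, stood at 3933 CPM in replicate 2 and 3896 CPM in replicate 1. Of the 8 with at least 10 reads in both libraries, 1 was called higher in replicate 2 (Mir21a, log2 ratio 0.18), 3 were called lower (Mir342 at -0.15, Mir221 at -0.45 and Mir181b-1 at -0.97) and 4 were not called, a share near the 54.3% called over all features. The exact test of edgeR called 0 of the 8 (adjusted p 0.795 to 1), with Mir181b-1 alone at an unadjusted p under 0.05 (p = 0.0309). Their median log2 ratio was -0.07.

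The lowest genes of that list were Mir147, Mir511 and Mir146b, singled out here after their values were seen. The list was not divided by cell type, so their levels are no measure of macrophages. Mir147, induced by Toll-like receptor signals in mouse macrophages, had 31 reads in replicate 2 (11.0 CPM) and 59 in replicate 1 (12.7 CPM). Mir511, from an intron of the macrophage mannose receptor gene Mrc1, had 16 reads in replicate 2 (5.70 CPM) and 21 in replicate 1 (4.54 CPM). Neither was called different between the libraries. Mir146b, which shares the seed of miR-146a-5p, had 2 reads in replicate 2 (0.713 CPM) and 7 in replicate 1 (1.51 CPM), far below Mir146. How many reads of either hairpin came from the arm with that seed was not measured.

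Blood in the vessels of the tissue was followed through the erythroid microRNAs, all 3 with reads in both libraries. They summed to 271 CPM in replicate 2 and 413 CPM in replicate 1, a log2 ratio of -0.61 ± 0.06 (counting SE). The sum of the 5 leukocyte genes had a log2 ratio of 0.37 ± 0.03. Mir451a held most of the erythroid sum, and the median log2 ratio of the 3 erythroid genes was 0.20. Neither sum was tested against the general spread between the pools. The leukocyte sum was 4.58 times the erythroid sum in replicate 2 and 2.33 times in replicate 1. Mir451a, the main microRNA of red cells, had 212 CPM in replicate 2 and 373 CPM in replicate 1 and was called lower (log2 ratio -0.81 ± 0.07). Mir144, from the same transcript, had 29.6 CPM in replicate 2 and 25.7 CPM in replicate 1 and was not called. Mir486 had 29.2 CPM in replicate 2 and 13.8 CPM in replicate 1 and was called higher (1.08 ± 0.24). These calls are against counting noise, and edgeR's exact test with the common dispersion called none of the 3 (adjusted p 0.795 to 1, with Mir486 at an unadjusted p of 0.0294). The part of blood in the leukocyte values was not tested.

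In the vessel wall list, endothelial Mir126a stood at 26243 CPM in replicate 2 (21.1 times the leukocyte sum) and 23434 CPM in replicate 1 (24.3 times), with a log2 ratio of 0.16 ± 0.01. The mural cell microRNAs Mir143 and Mir145a summed to 11498 CPM in replicate 2 and 8417 CPM in replicate 1. Mir143 held nearly all of that sum and was called higher in replicate 2 (log2 ratio 0.45 ± 0.01). Mir145a stood below Mir155, at 147 CPM in replicate 2 and 132 CPM in replicate 1, and was not called (0.15 ± 0.09). Of the 7 neural genes tested, 2 were called higher (Mir128-1 at 0.61 and Mir128-2 at 0.68), 3 lower (Mir137 at -0.25, Mir153 at -0.10 and Mir9-3 at -0.36) and 2 were not called, beside 27.3% higher and 27.0% lower over all features. With edgeR's exact test none of the endothelial, mural or neural genes was called (adjusted p = 1 for each, and none at an unadjusted p under 0.05). The part of vessel or tissue content in the leukocyte ratios was not tested.

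**Figure D5:**
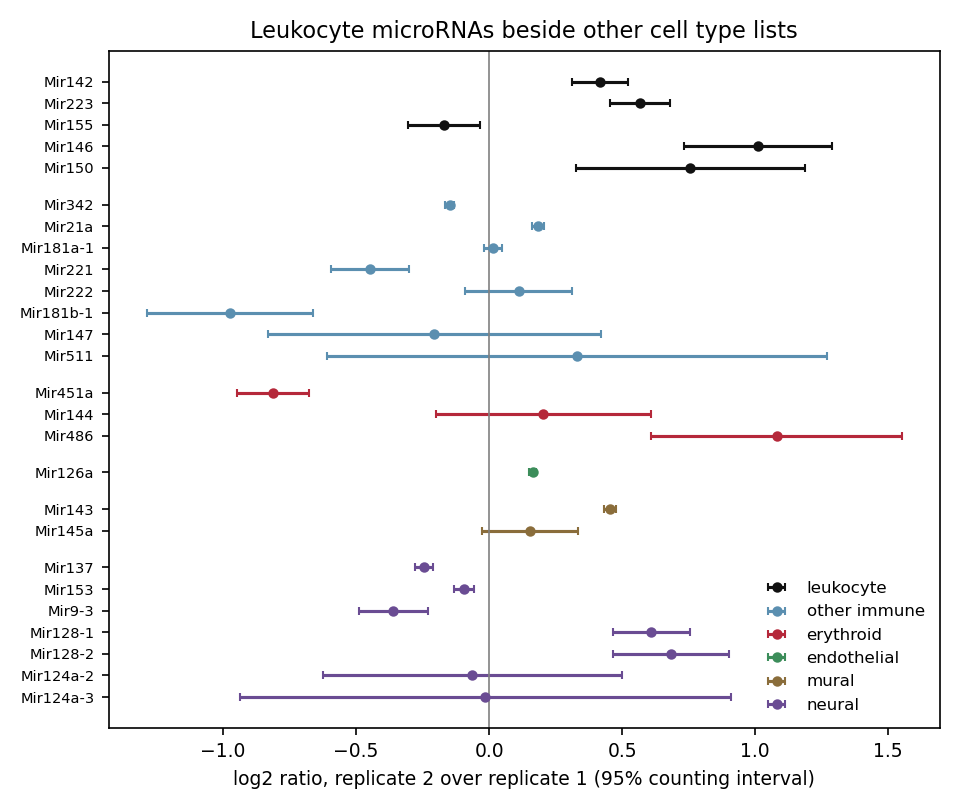
Log2 ratio of replicate 2 over replicate 1 with 95% counting intervals for the 5 leukocyte genes and the quantified genes of 5 comparison lists, one gene a row. Mir142, Mir223, Mir146 and Mir150 lie right of 0 and Mir155 left of it, while erythroid genes spread from -0.81 (Mir451a) to 1.08 (Mir486).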

How the data were processed

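Small RNA libraries of embryonic midbrain were analysed from 2 pools that the labels call biological replicates of 1 group. The deposited files hold raw counts per microRNA gene, whole numbers with no normalization by the authors. Per the deposited read-me files they derive from alignments to mm10 with annotation M4. Which aligner was used is not given in the sources used here. Rows that name no gene (unmapped, multimapping, no feature, ambiguous) stayed out of library totals and held 58.2% of reads in replicate 2 and 56.9% in replicate 1.

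The columns were read as either, own and opposite strand, since the own-strand column held 97.5% of the either-strand gene reads in replicate 2 and 97.6% in replicate 1. Symbols came from GENCODE M21 on GRCm38, which named 1894 of 1973 identifiers, and sequences from RefSeq tables on GRCm38.p6. CPM divide a count by the own-strand gene total. Genes with at least 10 counts in both libraries, plus Mir142b by its opposite strand, were tested with Fisher's exact test (scipy 1.17.1, adjusted by Benjamini-Hochberg, threshold 0.05). The test was checked on simulated counts that held counting noise alone, so the check does not cover the spread between the pools. A quasi-likelihood test was not used, because 1 library against 1 leaves no residual degrees of freedom. Alternatives used edgeR 4.0.16 (TMM scaling, exact test with a common dispersion over both libraries) and DESeq2 1.42.0 size factors, other totals, strands, filters and single libraries. A count of 0 was given a limit of 3 counts. Intervals (95% Wilson) and limits cover counting error only, since PCR reads are not independent molecules. Fisher p-values set the libraries against counting noise alone, and edgeR p-values add the spread between the pools.

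Genes named are the 5 leukocyte genes, their neighbours in rank, the 2 nearest in ratio, genes that share a seed, and the comparison lists. The leukocyte genes and all lists were chosen with earlier results of these data known.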

Additional observations from a re-analysis of the deposited data

Results flagged for a closer look

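Reads on the strand not used for counting were above the limit of 3 counts for 4 genes of the comparison lists and for none of the leukocyte genes read on their own strand. Over Mir126a they numbered 7 in replicate 2 and 12 in replicate 1, and over Mir124a-3 they numbered 12 in replicate 2 and 19 in replicate 1. Mir486 had 9 in replicate 2, and Mir21a had 5 in replicate 1.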

How the results depend on the processing

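No ratio changed direction under any alternative, and the main limit is the test. With edgeR's exact test and a common dispersion, the log2 ratios were 1.01 for Mir146, 0.76 for Mir150, 0.57 for Mir223, 0.42 for Mir142 and -0.17 for Mir155. None of these 5 was called by that test, so 0 of the 5 genes and 4 of all features were called, against 5 and 207 by Fisher's exact test. The -0.17 of Mir155 was also no longer called with every gene that had a read in either library tested. Per 1000000 reads of the whole library, unmapped and multimapping reads included, levels were 176 for Mir142, 149 for Mir223, 106 for Mir155, 26.1 for Mir146, 10.4 for Mir150 and 467 for their sum, because the total is larger. Without Mir99a in the total levels rose, to 484 CPM for Mir142, 410 for Mir223, 292 for Mir155, 72.2 for Mir146 and 28.8 for Mir150. Of these only Mir155, the gene with the smallest SD relative to its mean, moved by more than 1 SD. Without Mir142 the sum was 688 CPM. Of the alternatives that keep both libraries, 24 of 30 levels stayed within 1 SD, and 34 of 40 ratios kept their call. Some of these could not change. Mir142, Mir223, Mir155 and Mir146 had no reads on the other strand, so counting either strand left their levels as they were. A change of total shifts every ratio by the same amount. A gene with a large SD, such as Mir146, also stays within 1 SD more easily. With 2 replicates the value of 1 library is always within 1 SD of the mean, so leaving 1 out tests no level. Without replicate 2 Mir146 stood at 41.0 CPM and without replicate 1 at 82.7 CPM, and its mean of 61.9 CPM was 1.51 times the lower value. The other 4 genes moved by less. No paired analysis was possible because the libraries form 1 group. Depth limits Mir150 and Mir146 most, and with 2 pools the spread between embryos is not known.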
